A study of Mus musculus with 8 samples.

Results

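Solute carriers are membrane proteins that move small molecules such as amino acids, sugars, ions, vitamins and metals across cell membranes, and their genes carry the symbol Slc followed by a family number. They were taken here as every gene with a probe set annotated to it alone whose symbol has that form. The mitochondrial family Slc25 and the zinc families Slc30 and Slc39 were left out. This gave 211 genes, measured by 330 probe sets, of 12393 genes and 22690 probe sets on the array. Of the 211, 3 are named after a carrier and are no carriers themselves, and they were kept in the counts. RNA came from the ventral prostate of male FVB mice aged 8 weeks, on 4 arrays from mice that carry a transgene for polyoma virus middle T antigen (MT) and 4 arrays from wild-type mice of that strain, sex and age. Middle T is a viral membrane oncoprotein that recruits Src-family kinases and phosphatidylinositol 3-kinase, and the series sets the carcinoma it induces against normal prostate. The sources used here do not give what drives the transgene or whether animals were pooled, and the level of the transgene was not analysed here. Separate animals are not named either, so the p-values cover the spread between these 8 arrays, part of which may be technical.

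Carriers of the plasma membrane set what an epithelial cell takes up and releases, while others load lysosomes, the endoplasmic reticulum, the Golgi apparatus and secretory vesicles. The ventral prostate is a secretory gland whose luminal cells export protein, citrate and fluid, which draws on amino acid uptake, ion exchange and the supply of nucleotide sugars for glycosylation. Several carriers need a partner: the amino acid exchangers Slc7a5 and Slc7a8 reach the cell surface only with the heavy chain Slc3a2, and the lactate carriers of the Slc16 family need basigin or embigin. Tumours are known for altered uptake of glucose, glutamine and essential amino acids and for export of lactate.

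Levels are RMA values on the log2 scale, and differences subtract the wild-type mean from the MT mean, so that a difference of 1 is a 2-fold change. Over the 12393 genes, with 1 probe set for each, arrays of a group correlated at 0.996 to 0.997 in MT and 0.992 to 0.994 in wild type. Arrays of different groups correlated at 0.963 to 0.969. Genes of ventral prostate secretion averaged 9.10 to 9.75 on the MT arrays and 12.6 to 12.8 on the wild-type arrays, and all 3 measured were lower in MT. Luminal epithelial markers, 6 of 6, were higher in MT, with a median difference of 0.78 and a range of 0.60 to 1.01. Basal markers were lower for 3 of 4, with a median of -1.02. Smooth muscle markers were lower for 7 of 7, with a median difference of -1.07, and fibroblast markers for 6 of 6, with a median of -1.02. Neutrophil markers were higher for 3 of 4, T cell markers for 3 of 5 and macrophage markers for 1 of 5, with another macrophage marker lower. Adipocyte markers were lower for 3 of 3 and varied widely, with a mean level of 4.84 to 6.24 on the MT arrays and 5.56 to 8.60 on the wild-type arrays. The 4 seminal vesicle genes had a mean of 3.59 to 3.76 in MT and 3.60 to 3.79 in wild type, and none was called. Of these, 2 were at or below the highest bacterial control on every array, where controls reached 3.90, while Svs5 read 4.67 to 5.08 in MT and 4.71 to 4.97 in wild type. The 3′ minus 5′ signal of Gapdh control probe sets, a measure of RNA integrity, was 0.45 to 0.64 in MT and 0.54 to 0.92 in wild type, with a two-sided exact permutation p of 0.0857, where the smallest possible is 0.0286. For Actb it was 0.57 to 0.85 in MT and 0.71 to 1.05 in wild type, with a p of 0.114 in the same test. In whole tissue, fewer cells of a type and less RNA per cell cannot be told apart, and the part of these shifts in the results below was not tested.

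Of the 211 solute carriers, 32 rose and 57 fell at an adjusted p under 0.05 (limma, adjusted over all 12393 genes), and 122 did not pass. The share called was 42.2%, against 41.1% of all genes. Rises made up 15.2% of the solute carriers, against 19.7% of all genes, and falls 27.0%, against 21.3%. A 2-fold change with a call was reached by 13, of which 5 rose and 8 fell, which is 6.16%, against 5.08% of all genes. The 4 MT values lay wholly above or below the 4 wild-type values for 86 solute carriers, 34 above and 52 below, or 40.8%, against 40.0% of all genes. The median difference was -0.04, against -0.01 over all genes, and single genes ran from -2.50 to 1.72. By these counts, pooled over all signal levels, the solute carriers were near the background, with somewhat more falls than rises. The tissue was one in which a large share of all genes moved. Their median level was 5.67 in MT and 5.84 in wild type, against 6.64 and 6.60 over all genes. At high signal they were above the background, with 74.1% called in the highest band described next, against 58.4% of other genes.

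The share called was higher at higher signal, in solute carriers as in other genes. The class shares given below are set against genes of all levels, without matching for level. Among the 99 solute carriers in the lowest of 3 equal bands of mean level over all genes, 19.2% were called, with 5 rises and 14 falls, against 18.1% of the other genes in that band. In the middle band, 51.7% of 58 were called, with 13 rises and 17 falls, against 46.3% of other genes. In the highest band, 74.1% of 54 were called, with 14 rises and 26 falls, against 58.4% of other genes. From the lowest band to the highest, rises made up 5.05%, 22.4% and 25.9%, against 7.91%, 23.1% and 28.4% of other genes. Falls made up 14.1%, 29.3% and 48.1%, against 10.2%, 23.2% and 30.1% of other genes. Of all members, 11 were at or below the highest bacterial control on every array. For 79 genes several probe sets were present and the one with the highest mean stood for the gene. Of the 36 called among them, 2 had another probe set called the opposite way and 16 another with no call. Among the genes with no call, 11 had another probe set that was called.

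**Figure D1:**
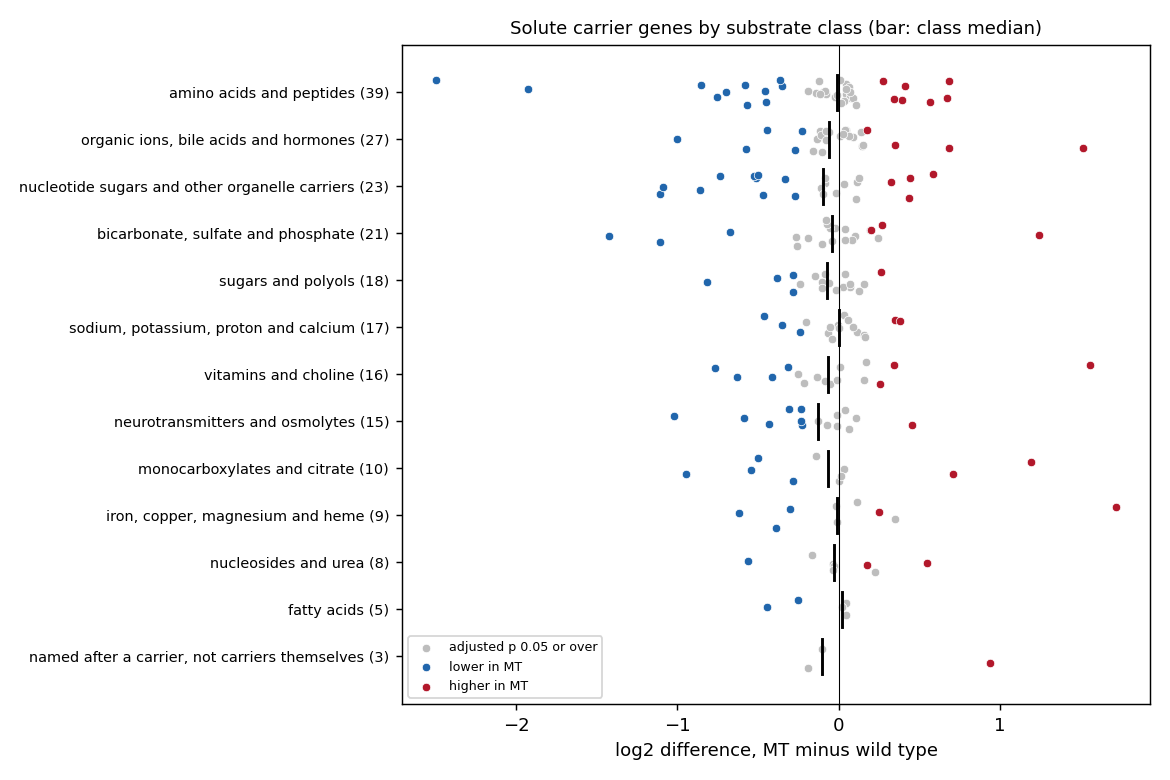
Difference in log2 expression, MT minus wild type, on the x axis for each of the 211 solute carrier genes, by substrate class down the y axis with the number of genes in parentheses. Red points are calls higher in MT, blue points calls lower in MT and grey points genes with no call, and the black bar is the class median. The medians run from -0.13 to 0.02, while single genes reach -2.50 among amino acid carriers and 1.72 among metal carriers.

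**Figure D2:**
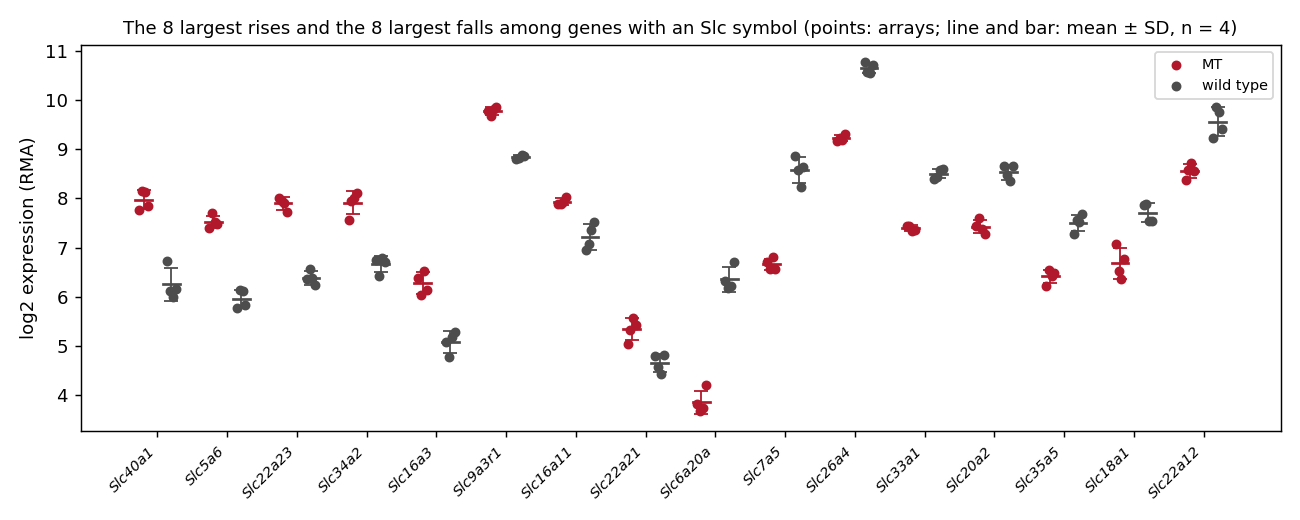
Log2 expression (y axis) on each array of the 8 genes with the greatest rises, Slc9a3r1 among them, a scaffold that has an Slc symbol and is no carrier, and the 8 with the greatest falls, among members called without overlap, MT in red at left and wild type in grey at right, with the line and bar at the mean ± SD (n = 4). In each of the 16 genes the 4 MT points lie apart from the 4 wild-type points, from Slc40a1 at 1.72 to Slc6a20a at -2.50.

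Promoter sequences are shown for 3 genes from the results on amino acids and lactate, each holding a motif match. These are the lactate exporter Slc16a3, higher in MT, the exchanger heavy chain Slc3a2, also higher, and the cystine exchanger Slc7a11, with no call. The 250 bases before the start of each gene are from RefSeq on GRCm38.p6, written 5′ to 3′ on the gene's own strand. Capitals mark the hypoxia response core ACGTG, or CACGT where it is read from the other strand, in the sequences of Slc16a3 and Slc3a2, and the amino acid response motif TGATGNAA on either strand in that of Slc7a11.
Slc16a3, chr11:120948817-120949066, plus strand: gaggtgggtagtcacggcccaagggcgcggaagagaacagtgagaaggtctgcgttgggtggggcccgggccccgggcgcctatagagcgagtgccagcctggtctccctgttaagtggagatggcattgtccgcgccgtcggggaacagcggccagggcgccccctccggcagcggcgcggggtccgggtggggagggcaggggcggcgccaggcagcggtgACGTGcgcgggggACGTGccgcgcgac
Slc3a2, chr19:8713898-8714147, minus strand: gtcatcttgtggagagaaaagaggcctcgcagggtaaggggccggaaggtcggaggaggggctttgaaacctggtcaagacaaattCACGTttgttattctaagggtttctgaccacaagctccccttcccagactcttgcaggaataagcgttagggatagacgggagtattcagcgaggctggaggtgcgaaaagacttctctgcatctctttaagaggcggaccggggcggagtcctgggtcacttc
Slc7a11, chr3:50443614-50443863, minus strand: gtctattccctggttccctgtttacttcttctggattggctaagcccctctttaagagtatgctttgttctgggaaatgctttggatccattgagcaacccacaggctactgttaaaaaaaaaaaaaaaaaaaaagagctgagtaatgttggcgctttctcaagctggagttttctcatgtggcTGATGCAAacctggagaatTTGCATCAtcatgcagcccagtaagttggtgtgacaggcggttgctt
In Slc16a3 the core begins 27 and 14 bases before the start, in Slc3a2 164 bases before it, and in Slc7a11 the composite motif begins 66 and 47 bases before it.

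Both motifs were searched on both strands in the same window for 165 of the 211 genes, which have 221 promoters in the table, and for all 32851 promoters. Slc7a5 was not among those 165 genes. ACGTG, the core bound by hypoxia-inducible factors, was in 16.6% of all promoters. It was in 7 of 31 promoters of solute carriers that rose (22.6%), in 12 of 62 of those that fell (19.4%) and in 23 of 128 of those with no call (18.0%). Among those with no call, the lactate carrier Slc16a1 had 2 matches and the glucose carrier Slc2a1 had 1. TGATGNAA, the composite site of ATF4 with C/EBP factors, was in 3.45% of all promoters, in 0 of 31 of those that rose, in 1 of 62 of those that fell, which belongs to the sugar carrier Slc50a1, and in 5 of 128 of those with no call. A match describes letters in this window, and nothing here measured binding.

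Carriers of amino acids and peptides were the largest class. Of 39 genes, 7 rose and 11 fell, with a median of -0.01. The share called was 46.2%, near the 41.1% of all genes, with 17.9% higher and 28.2% lower, against 19.7% and 21.3% of all genes. The median level of the class was 4.98 in MT and 5.01 in wild type. In the lowest band of level, 18.1% of other genes were called. Among the falls were the neutral amino acid carriers Slc6a20a, Slc7a5, Slc7a8, Slc1a5 and Slc38a2, while the peptide carriers of family Slc15 gave 3 rises and no fall among 5. No member of the Slc7 family rose, and 4 of its 13 fell, which is 30.8% called. In the Slc1 and Slc38 families 3 of 6 fell in each, and none rose. Of all genes 21.3% fell and 41.1% were called.

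Slc6a20a, the sodium-coupled carrier of proline and other imino acids, had the greatest fall among the solute carriers. It read 3.81, 3.67, 3.75 and 4.20 on the 4 MT arrays, against 6.31, 6.17, 6.21 and 6.72 on the 4 wild-type arrays. The groups did not overlap, and the MT values were just above the highest bacterial control of their arrays, which lay at 3.53 to 3.72. The difference was -2.50 ± 0.14 (SE), with an adjusted p of 1.78e-07, a 5.64-fold lower signal. Slc7a5, known as LAT1, the exchanger that brings in leucine and other essential amino acids, had 6.70, 6.56, 6.80 and 6.56 on the 4 MT arrays, against 8.87, 8.57, 8.24 and 8.64 on the 4 wild-type arrays. All MT values were below all wild-type values. Its difference was -1.92 ± 0.12 (SE), with an adjusted p of 3.89e-07, or 3.79-fold lower.

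Slc3a2, known as 4F2hc, the heavy chain that carries Slc7a5 to the surface, moved the other way. It had 9.95, 9.83, 9.84 and 9.80 in MT, against 9.56, 9.55, 9.33 and 9.41 in wild type. The MT values lay above every wild-type value, and the difference was 0.39 ± 0.07 (SE), with an adjusted p of 0.00123. Slc7a8, or LAT2, the exchanger that shares this heavy chain, had 5.0, 4.96, 5.05 and 5.21 in MT, against 5.76, 5.78, 5.61 and 5.86 in wild type, with no overlap, and fell by 0.70 (adjusted p 3.13e-05). Slc7a11, the cystine and glutamate exchanger that also pairs with Slc3a2, had 3.90, 4.02, 3.98 and 3.91 in MT, against 3.95, 3.88, 3.89 and 3.96 in wild type. Its groups overlapped and no call was made (0.03, adjusted p 0.704), at levels close to the bacterial controls. Slc3a1, the heavy chain of the renal cystine carrier, likewise gave no call (0.07, adjusted p 0.632).

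Carriers of glutamine, alanine and serine in the Slc1 and Slc38 families gave falls or no call. Slc1a5, or ASCT2, an exchanger of glutamine and other neutral amino acids, had 9.53, 9.36, 9.43 and 9.32 in MT, against 10.02, 9.90, 9.85 and 10.14 in wild type. The groups were apart, and the difference was -0.57 ± 0.08 (SE), with an adjusted p of 0.000174. Slc38a2, or SNAT2, a sodium-coupled carrier of alanine and glutamine, had 9.22, 8.94, 8.87 and 8.89 in MT, against 9.62, 9.59, 9.85 and 9.18 in wild type. MT array 1 lay above wild-type array 4, so the groups overlapped, while the test gave a fall of 0.58 (adjusted p 0.00423). Its close relative Slc38a1 gave no call (-0.08, adjusted p 0.545), with 8.93 to 9.17 in MT, against 8.88 to 9.32 in wild type. Slc7a4, a member of the cationic amino acid branch with no settled substrate, had 10.15, 10.09, 10.03 and 9.98 in MT, against 11.04, 11.02, 10.56 and 11.02 in wild type. Wild-type array 3 was the low value of its group and still above every MT array, and the difference was -0.85 ± 0.10 (SE), with an adjusted p of 6.71e-05.

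Slc1a6, a neuronal glutamate carrier chosen here after its values were seen, was not above the highest bacterial control on any MT array, so its fall is given as at least 1.14-fold, with 3.31 to 3.51 in MT, against 3.63 to 4.01 in wild type and an adjusted p of 0.0139.

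Carriers of peptides and a carrier of broad amino acid range were among the rises. Slc15a2, or PEPT2, which takes up dipeptides and tripeptides with protons, had 9.34, 9.30, 9.08 and 9.19 in MT, against 8.75, 8.62, 8.69 and 8.14 in wild type. The groups did not overlap, and the difference was 0.68 ± 0.12 (SE), with an adjusted p of 0.0011. A second, dimmer probe set of Slc15a2 was called in the other direction, at -0.33, and the mean over both gave no call (0.18, adjusted p 0.0838). Slc15a3, a peptide and histidine carrier of lysosomes that is abundant in macrophages, had 4.63 to 4.75 in MT, against 4.01 to 4.22 in wild type (0.57, adjusted p 4.25e-05). Slc6a14, a carrier that takes up both neutral and cationic amino acids with sodium and chloride, had 6.35, 6.28, 6.20 and 6.03 in MT, against 5.62, 5.72, 5.46 and 5.38 in wild type. The MT values were the higher throughout, and the difference was 0.67 ± 0.09 (SE), with an adjusted p of 0.000174. Of the macrophage markers beside Slc15a3, 1 of 5 was called higher (Adgre1, 0.24) and 1 lower (Mrc1, -0.53), with a mean level of 7.37 to 7.55 in MT and 6.96 to 7.77 in wild type, and their part was not tested.

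**Figure D3:**
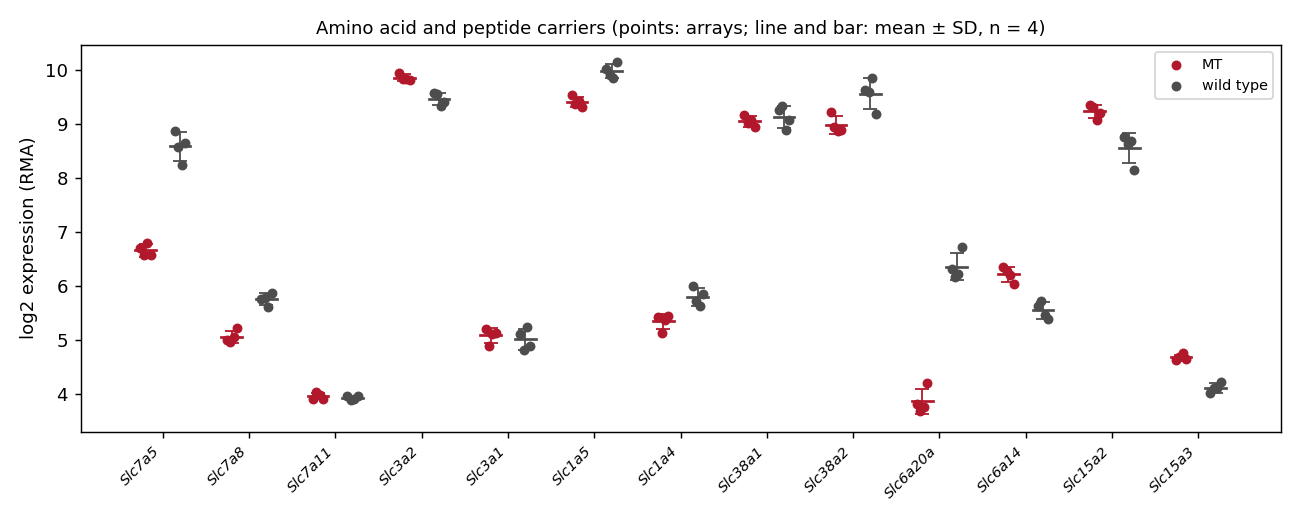
Log2 expression (y axis) of amino acid carriers on each array, MT in red at left and wild type in grey at right of each gene, with the line and bar at the mean ± SD (n = 4). Slc7a5 and Slc7a8 sit lower in MT while their heavy chain Slc3a2 sits higher, and Slc38a2 and Slc7a11 overlap between groups.

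Glucose carriers of the ubiquitous type showed no call, and 4 of the 5 called sugar carriers were lower. Of 18 genes in the class, 1 rose and 4 fell, with a median of -0.07, or 27.8% called against 41.1% of all genes. Slc2a1, or GLUT1, the basal glucose carrier of most cells, had 7.66, 7.49, 7.39 and 7.15 in MT, against 7.19, 7.28, 7.44 and 7.49 in wild type. The groups overlapped (0.07, adjusted p 0.64), as they did for the high-affinity carrier Slc2a3, with 5.31 to 5.82 in MT, against 5.57 to 5.72 in wild type (-0.09, adjusted p 0.55). Slc45a3, a carrier known as prostein for its expression in prostate, had 11.66, 11.75, 11.83 and 11.63 in MT, against 11.92, 11.81, 11.79 and 11.75 in wild type, and gave no call (-0.10, adjusted p 0.281), although its dimmer probe set was called lower at -0.20.

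Slc5a3, which takes up myo-inositol with sodium, had 4.43, 4.46, 4.22 and 4.46 in MT, against 6.13, 4.60, 4.99 and 5.10 in wild type. Wild-type array 1 stood above the rest of its group, and the difference was -0.81 ± 0.25 (SE), with an adjusted p of 0.0226, against -0.50 without that array (adjusted p 0.0072). The call was lost without MT array 3 (adjusted p 0.0619), and with a trend and robust prior (adjusted p 0.0566). Slc50a1, the animal relative of the plant SWEET sugar carriers, fell without overlap, with 8.89 to 9.05 in MT, against 9.27 to 9.43 in wild type (-0.38, adjusted p 0.00078). Slc2a4, or GLUT4, the insulin-responsive carrier of fat and muscle, had 6.20, 6.15, 6.32 and 6.44 in MT, against 6.68, 6.51, 6.63 and 6.43 in wild type and fell by 0.28 (adjusted p 0.0185), a call lost without MT array 1, MT array 2 or wild-type array 1 (adjusted p 0.0547, 0.0598 and 0.0523). Its other probe set was also called lower, at -0.55. Beside Slc2a4, adipocyte markers were lower in MT for 3 of 3 and smooth muscle markers for 7 of 7, and their part was not tested.

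Slc2a10, a glucose carrier of intracellular membranes, had 3.96 to 4.06 in MT, against 4.08 to 4.49 in wild type (-0.28, adjusted p 0.0363), and its call was lost without any 1 of the MT arrays or without wild-type array 2 or 4, at adjusted p values of 0.0565 to 0.0954. It was also lost after a further quantile normalization (adjusted p 0.0516) and when MT array 2 was left out along with wild-type array 4 (adjusted p 0.146). Its difference was -0.59 as the mean over both probe sets and -0.90 on the unique-type one. Slc5a1, or SGLT1, which takes up glucose with sodium, was the class's rise, with 9.17, 9.14, 9.33 and 9.04 in MT, against 8.95, 8.92, 8.76 and 9.0 in wild type (0.26, adjusted p 0.0196). That call was lost without MT array 3 (adjusted p 0.0621), and its dimmer probe set gave no call (0.17). The number of falls in the class was 2 without MT array 1, 2 or 3, and the number of rises was 0 without MT array 3 and 2 without wild-type array 3 or 4.

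Lactate carriers differed in direction. The class of monocarboxylates and citrate had 2 rises and 4 falls among 10 genes, with a median of -0.07, or 60.0% called against 41.1% of all genes. Slc16a3, or MCT4, the low-affinity carrier by which glycolytic cells release lactate, had 6.38, 6.04, 6.53 and 6.14 on the 4 MT arrays, against 5.09, 4.77, 5.18 and 5.28 on the 4 wild-type arrays. Every MT value exceeded every wild-type value. The difference was 1.19 ± 0.13 (SE), with an adjusted p of 2.36e-05, or 2.29-fold higher. Slc16a1, or MCT1, the widespread carrier of lactate and pyruvate, had 5.20, 4.97, 4.71 and 4.74 in MT, against 4.97, 4.87, 5.03 and 5.32 in wild type. The groups overlapped and no call was made (-0.14, adjusted p 0.396).

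Slc16a11, an MCT-family carrier studied in human liver, had 7.88, 7.89, 7.93 and 8.03 in MT, against 6.95, 7.06, 7.36 and 7.52 in wild type, with wild-type arrays 3 and 4 above the other two and still below the MT values. Its difference was 0.71 ± 0.11 (SE), with an adjusted p of 0.000479. Slc5a8, or SMCT1, the sodium-coupled carrier of lactate, butyrate and other short-chain acids on the luminal face of epithelia, had 7.28, 7.14, 7.04 and 7.19 in MT, against 7.74, 8.28, 8.36 and 8.07 in wild type. It was lower in MT throughout, at -0.95 ± 0.12 (SE), with an adjusted p of 8.69e-05. Slc16a7, or MCT2, a high-affinity carrier, fell by 0.50 and Slc16a4, whose substrate is poorly known, by 0.54 (adjusted p 0.00183 and 0.000473), both without overlap. The citrate carrier Slc13a5 was not analysed here.

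The chaperones of the lactate carriers were both higher in MT. Bsg, basigin, which brings Slc16a1 and Slc16a3 to the surface, had 11.93, 12.06, 12.06 and 12.05 in MT, against 11.67, 11.76, 11.42 and 11.66 in wild type, a rise of 0.40 (adjusted p 0.00198). Emb, embigin, the chaperone of Slc16a7 and an alternative one of Slc16a1, had 8.89, 8.77, 8.83 and 8.86 in MT, against 7.90, 7.97, 7.80 and 8.34 in wild type, a rise of 0.84 (adjusted p 7.55e-05). Neither pair of groups overlapped. Slc16a3 is also expressed by neutrophils and activated macrophages. The neutrophil markers S100a8 and S100a9, calcium-binding proteins of neutrophil granulocytes, were higher by 3.33 and 2.72 in MT. Of the other neutrophil markers, Csf3r was higher by 0.63 and Mmp9 gave no call (0.16, adjusted p 0.0886). The part of neutrophils and macrophages in the Slc16a3 signal was not tested.

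The greatest rise of any solute carrier was that of an iron exporter. Slc40a1, ferroportin, the only known exporter of iron from mammalian cells, had 7.77, 8.15, 8.12 and 7.85 on the 4 MT arrays, against 6.74, 6.12, 5.99 and 6.15 on the 4 wild-type arrays. The groups were apart, with wild-type array 1 the highest of its group. The difference was 1.72 ± 0.15 (SE), with an adjusted p of 5.18e-06, or 3.3-fold higher, and its other probe set gave 2.06. The divalent metal carriers of family Slc11 gave no call. Slc11a2, or DMT1, had 7.88 to 7.95 in MT, against 7.82 to 8.12 in wild type (-0.01, adjusted p 0.913), and Slc11a1, or NRAMP1, the divalent metal carrier of phagocyte vacuoles, had 5.56 to 5.83 in MT, against 5.48 to 5.73 in wild type (0.11, adjusted p 0.307). Macrophages hold much ferroportin in spleen and liver. Beside this rise, the macrophage markers gave 1 rise and 1 fall among 5, with a median of 0.28, and their part was not tested.

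Of the 9 genes for iron, copper, magnesium and heme, 2 rose and 3 fell, or 55.6% called against 41.1% of all genes. Their median level was 7.92 in MT and 7.70 in wild type, and 58.4% of other genes in the highest band were called. Slc31a2, or CTR2, a copper carrier of endosomes and lysosomes, had 7.52, 7.51, 7.53 and 7.35 in MT, against 8.15, 8.09, 8.12 and 8.02 in wild type. It was lower on every MT array, at -0.62 ± 0.07 (SE), with an adjusted p of 2.23e-05. Slc48a1, or HRG1, which moves heme out of endosomes, fell without overlap, with 8.50 to 8.66 in MT, against 8.86 to 9.08 in wild type (-0.39, adjusted p 0.00088), and by 0.24 as the mean over its probe sets. For magnesium, Slc41a1, a sodium-coupled exporter, rose by 0.25 (adjusted p 0.00886) and its relative Slc41a3 fell by 0.30 (adjusted p 0.0102). The mean over the 3 probe sets of Slc41a3 gave no call (-0.10, adjusted p 0.171).

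Anion exchangers and phosphate carriers held large changes in both directions. Of 21 genes, 3 rose and 3 fell, with a median of -0.04, and the share called was 28.6%, against 41.1% of all genes. Slc26a4, pendrin, which exchanges chloride for bicarbonate or iodide at the luminal face of epithelia, had 9.17, 9.24, 9.19 and 9.31 on the 4 MT arrays, against 10.77, 10.57, 10.56 and 10.71 on the 4 wild-type arrays. The arrays of each group lay within a narrow band and the bands were far apart. Its difference was -1.42 ± 0.07 (SE), with an adjusted p of 7.89e-08, or 2.68-fold lower. Slc4a4, or NBCe1, the sodium bicarbonate cotransporter that supplies ductal bicarbonate secretion, had 7.24, 7.16, 7.39 and 7.26 in MT, against 7.94, 8.15, 8.02 and 7.63 in wild type. It was lower throughout, at -0.68 ± 0.10 (SE), with an adjusted p of 0.000336. Of its 3 other probe sets, 2 were lower, at -0.68 and -0.44, and 1 gave no call, at -0.06.

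The phosphate carriers Slc34a2 and Slc20a2 moved in opposite directions. Slc34a2, or NaPi-IIb, the sodium phosphate cotransporter of the apical membrane in lung and gut, had 7.57, 7.95, 8.02 and 8.11 on the 4 MT arrays, against 6.74, 6.42, 6.80 and 6.71 on the 4 wild-type arrays. No wild-type value reached the MT values, and the difference was 1.24 ± 0.12 (SE), with an adjusted p of 1.02e-05. Slc20a2, or PiT-2, the housekeeping phosphate carrier, had 7.45, 7.60, 7.37 and 7.28 in MT, against 8.65, 8.47, 8.35 and 8.66 in wild type. It fell without overlap, at -1.10 ± 0.09 (SE), with an adjusted p of 3.51e-06, and its other probe set also fell, at -0.67. The chloride bicarbonate exchanger Slc4a2, or AE2, had 7.77 to 7.96 in MT, against 7.38 to 7.72 in wild type (0.27, adjusted p 0.024), a call lost without MT array 1, MT array 3 or wild-type array 3 (adjusted p 0.0601, 0.0738 and 0.0522). Slc26a6, an exchanger of chloride, oxalate and bicarbonate, had 5.92 to 6.16 in MT, against 5.75 to 5.96 in wild type. Its difference of 0.20 (adjusted p 0.045) lost its call with the array number as a replicate block (adjusted p 0.0630) and without any of MT arrays 1, 2 and 4 and wild-type arrays 1, 3 and 4 (adjusted p 0.0756 to 0.129). The number of rises in the class was therefore 1 without MT array 1 or wild-type array 3, and the number of falls was 6 with the replicate block and 5 without wild-type array 1. Slc26a3 and the iodide carrier Slc5a5 gave no call (0.08 and 0.04).

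Cation chloride cotransporters gave small differences. Slc12a2, or NKCC1, the sodium, potassium and chloride cotransporter that loads chloride for fluid secretion, had 13.09, 12.98, 12.95 and 13.08 in MT, against 12.95, 12.94, 12.83 and 12.93 in wild type. The difference was 0.11, adjusted p 0.186, with no call, and it was called under the mean over its probe sets (0.17, adjusted p 0.0285) and after a further quantile normalization (0.21, adjusted p 0.0313). Of the 17 genes for sodium, potassium, protons and calcium, 2 rose and 3 fell, with a median of 0.0, or 29.4% called against 41.1% of all genes. Slc12a7, or KCC4, a potassium chloride exporter, and Slc12a9, a relative with no settled substrate, rose by 0.35 and 0.38 (adjusted p 0.00555 and 0.00074), both without overlap. The dimmer probe set of Slc12a7 gave no call (0.18).

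Slc12a3, the thiazide-sensitive sodium chloride cotransporter of kidney, fell by 0.24 (adjusted p 0.00814), with 5.96 to 6.08 in MT, against 6.19 to 6.30 in wild type. Slc12a4, or KCC1, fell by 0.35 (adjusted p 0.0198), with 4.50 to 4.92 in MT, against 4.85 to 5.25 in wild type, and its call was lost without MT array 4 or wild-type array 1 (adjusted p 0.0615 and 0.0558). Slc24a3, or NCKX3, a potassium-dependent sodium calcium exchanger abundant in smooth muscle, had 6.84, 6.70, 7.04 and 7.16 in MT, against 7.64, 7.07, 7.24 and 7.65 in wild type (-0.46, adjusted p 0.0214). The groups overlapped, and the call was lost without MT array 1 or 2 or wild-type array 1 or 4 (adjusted p 0.0572, 0.0664, 0.0609 and 0.0592), and without both MT array 2 and wild-type array 4 the difference was -0.30. Smooth muscle markers averaged 8.42 to 9.25 in MT and 9.46 to 10.3 in wild type, and their part in this fall was not tested. The number of falls in the class was 1 without wild-type array 1.

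Of 23 carriers of nucleotide sugars and of other organelles, 10 fell and 4 rose, with a median of -0.09. Of the class 43.5% fell, against 21.3% of all genes, and 17.4% rose, against 19.7%. The class was bright, with a median level of 7.84 in MT and 7.90 in wild type. In the highest band of level, 30.1% of other genes fell and 28.4% rose. In the Slc35 family, which brings nucleotide sugars into the Golgi apparatus and endoplasmic reticulum, 7 of 18 fell and 3 rose. Slc33a1, which brings acetyl-CoA into the endoplasmic reticulum, had 7.44, 7.45, 7.33 and 7.37 on the 4 MT arrays, against 8.40, 8.44, 8.58 and 8.59 on the 4 wild-type arrays. The bands of the groups were narrow and apart, and the difference was -1.11 ± 0.07 (SE), with an adjusted p of 3.79e-07. Slc37a4, the carrier of glucose 6-phosphate into the endoplasmic reticulum, had 8.12, 8.29, 8.19 and 8.10 in MT, against 9.19, 9.12, 8.77 and 9.06 in wild type, a fall of 0.86 (adjusted p 2.41e-05). Slc35a5, an orphan of the nucleotide sugar family, had 6.23, 6.54, 6.42 and 6.49 in MT, against 7.27, 7.55, 7.52 and 7.67 in wild type. It was lower in MT on every array, at -1.09 ± 0.10 (SE), with an adjusted p of 5.42e-06. Of its 5 probe sets, 3 were called, all lower, the mean over them was -0.46, and with only probe sets of the unique type the gene had no call (-0.24, adjusted p 0.0915).

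The falls also took in Slc35b1, an ATP and ADP exchanger of the endoplasmic reticulum, and Slc35a2, the UDP-galactose carrier of the Golgi apparatus, both chosen after their values were seen. Slc35b1 had 9.44 to 9.67 in MT, against 9.96 to 10.15 in wild type (-0.52, adjusted p 0.000212), and Slc35a2 had 8.61 to 8.83 in MT, against 8.98 to 9.67 in wild type (-0.51, adjusted p 0.00791). Of the 3 other probe sets of Slc35a2, 1 was called lower, at -0.29, and 2 gave no call, at -0.25 and -0.11. The rises were led by Slc35a3, the UDP-N-acetylglucosamine carrier, with 8.81, 9.0, 8.92 and 8.92 in MT, against 8.30, 8.35, 8.20 and 8.44 in wild type. Its groups were apart, and the difference was 0.59 ± 0.07 (SE), with an adjusted p of 6.27e-05, while its dimmer probe set gave no call (-0.04) and the mean over both was 0.27. Slc35d1, which carries UDP-glucuronic acid into the endoplasmic reticulum, rose by 0.44 and Slc37a1, a phosphate-linked glucose 6-phosphate carrier, by 0.44 (adjusted p 0.000134 and 0.000662). Beside these falls, the genes of ventral prostate secretion had a median difference of -3.03, and their part was not tested.

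Carriers named for neurotransmitters and osmolytes gave falls, several of them at low signal. Of 15 genes, 7 fell and 1 rose, with a median of -0.13, so that 46.7% fell, against 21.3% of all genes. Without MT array 2 the number of falls was 4. Slc18a1, or VMAT1, which loads amines into secretory granules of endocrine cells, had 7.08, 6.53, 6.36 and 6.77 on the 4 MT arrays, against 7.87, 7.89, 7.53 and 7.54 on the 4 wild-type arrays. The MT arrays were more widely spread than the wild-type arrays and lay below every wild-type array, and the difference was -1.02 ± 0.15 (SE), with an adjusted p of 0.000209. Slc17a9, which loads ATP into vesicles, fell by 0.59 (adjusted p 0.000467), with 5.41 to 5.55 in MT, against 5.81 to 6.30 in wild type. Slc6a12, or BGT1, which takes up betaine and GABA, had 3.96, 3.47, 3.99 and 4.01 in MT, against 4.24, 4.20, 4.35 and 4.37 in wild type, with MT array 2 the low value (-0.43, adjusted p 0.0101). Without MT array 2 and wild-type array 4 it was -0.28.

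Slc6a8, the creatine carrier, was the rise in this class. It had 8.04, 8.19, 8.16 and 8.08 in MT, against 7.75, 7.62, 7.63 and 7.66 in wild type. All MT values were above all wild-type values, at 0.45 ± 0.06 (SE), with an adjusted p of 0.000164. Slc6a6, the taurine carrier, had 8.25, 8.20, 8.10 and 7.74 in MT, against 8.23, 8.20, 7.76 and 8.38 in wild type. MT array 4 and wild-type array 3 were the low values of their groups, and no call was made (-0.07, adjusted p 0.719).

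Carriers of organic ions, bile acids and hormones gave 4 rises and 5 falls among 27 genes, with a median of -0.06, or 33.3% called against 41.1% of all genes. Without MT array 2 there were 3 falls. Slc22a23, an orphan of the organic ion family with no settled substrate, had 8.0, 7.96, 7.92 and 7.72 on the 4 MT arrays, against 6.35, 6.57, 6.37 and 6.23 on the 4 wild-type arrays. The groups were well apart, at 1.52 ± 0.09 (SE), with an adjusted p of 2.64e-07, or 2.86-fold higher. Among carnitine carriers of this family, Slc22a21, or Octn3, had 5.04, 5.32, 5.57 and 5.43 in MT, against 4.80, 4.58, 4.44 and 4.82 in wild type (0.68, adjusted p 0.00088), and Slc22a5, or OCTN2, had 8.76 to 9.0 in MT, against 8.39 to 8.66 in wild type (0.35, adjusted p 0.00455). Slc22a12, or URAT1, the urate exchanger of the kidney tubule, had 8.38, 8.58, 8.73 and 8.57 in MT, against 9.23, 9.85, 9.76 and 9.42 in wild type. It was lower throughout, at -1.0 ± 0.13 (SE), with an adjusted p of 0.00011, and the mean over its probe sets was -0.61. Slc22a17, a receptor for lipocalin-2 and its bound iron, fell by 0.58, and Slc10a3, an orphan of the bile acid family, by 0.44 (adjusted p 9.07e-05 and 0.00117). The cation carrier Slc22a3 was not analysed here.

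Among 16 vitamin and choline carriers 3 rose and 4 fell, with a median of -0.07, and the share called was 43.8%, near the 41.1% of all genes. Slc5a6, or SMVT, which takes up biotin, pantothenate and lipoate with sodium, had 7.40, 7.70, 7.51 and 7.47 on the 4 MT arrays, against 5.78, 6.13, 6.11 and 5.84 on the 4 wild-type arrays. The groups were apart by more than the spread within either, at 1.56 ± 0.10 (SE), with an adjusted p of 4.33e-07, or 2.94-fold higher. Slc46a1 and Slc19a1, both carriers of folate, fell. Slc46a1, or PCFT, the proton-coupled folate carrier, had 7.02, 7.01, 6.91 and 6.90 in MT, against 7.69, 7.75, 7.62 and 7.84 in wild type, at -0.77 ± 0.07 (SE), with an adjusted p of 5.33e-06. Slc19a1, the reduced folate carrier, chosen after its values were seen, fell by 0.31 (adjusted p 0.00327), with 7.37 to 7.47 in MT, against 7.60 to 7.82 in wild type, and 1 of its other probe sets gave no call (-0.09). Slc46a3, a lysosomal relative of Slc46a1, fell by 0.63 (adjusted p 1.93e-05).

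Choline carrier-like genes of family Slc44 gave 2 rises and 1 fall among 4. Slc44a1, the best known choline carrier of the family, had 9.08 to 9.22 in MT, against 9.42 to 9.67 in wild type (-0.42, adjusted p 0.000789). Its other probe set was called higher, at 0.20, and the mean over both gave no call (-0.11, adjusted p 0.188). Slc44a3 rose by 0.35 (adjusted p 0.00208) without overlap. Slc44a4, a carrier of thiamine pyrophosphate and choline in human epithelia, had 9.05 to 9.19 in MT, against 8.62 to 8.97 in wild type (0.26, adjusted p 0.0284), a call lost without MT array 2 or 3 or wild-type array 1 or 3 (adjusted p 0.0549 to 0.0831).

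Among 8 nucleoside and urea carriers 2 rose and 1 fell, or 37.5% called against 41.1% of all genes. Slc28a3, or CNT3, which concentrates nucleosides with sodium, had 8.72, 8.84, 8.77 and 8.70 in MT, against 8.11, 8.38, 8.14 and 8.21 in wild type. The groups were apart, at 0.55 ± 0.07 (SE), with an adjusted p of 0.000115. Slc29a3, or ENT3, a nucleoside carrier of lysosomes, had 7.72, 8.02, 7.72 and 7.78 in MT, against 8.46, 8.69, 7.96 and 8.37 in wild type. Wild-type array 3 lay below MT array 2, so the groups overlapped, and the difference was -0.56, adjusted p 0.00617. Slc29a4, a carrier of monoamines and adenosine, was dim, with 3.74 to 3.79 in MT, against 3.53 to 3.62 in wild type. Its difference of 0.17 (adjusted p 0.0303) lost its call with the replicate block (adjusted p 0.0567) and without any of MT arrays 2, 3 and 4 and wild-type array 3 (adjusted p 0.0599 to 0.0737), which leaves 1 rise in the class.

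Of 5 fatty acid carriers 2 fell and none rose, with a median of 0.02, and 3 gave no call. The share called was 40.0%, near the 41.1% of all genes. Slc27a1, or FATP1, which takes up long-chain fatty acids in fat and muscle, had 5.85, 5.74, 5.91 and 5.93 in MT, against 6.05, 6.40, 6.36 and 6.39 in wild type, with wild-type array 1 the low value (-0.44, adjusted p 0.00203). Slc27a2, or FATP2, a fatty acid carrier and very long-chain acyl-CoA synthetase, had 4.65 to 4.86 in MT, against 4.84 to 5.24 in wild type (-0.25, adjusted p 0.0437), and its call was lost without any 1 of the MT arrays or without wild-type array 1 or 3 (adjusted p 0.0542 to 0.124), which leaves 1 fall in the class. Fabp4, a fatty acid binding protein of adipocytes, read 6.73, 8.23, 6.90 and 6.63 in MT, against 7.55, 8.86, 9.43 and 10.58 in wild type, and the part of fat cells in these falls was not tested.

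Proteins that hold, sort or regulate the carriers were taken from a list of 51 genes with the Slco and aquaporin families, of which 39 were measured. Of these, 7 rose and 8 fell, with a median of -0.06. The share called was 38.5%, against 41.1% of all genes. The scaffolds Slc9a3r1 and Slc9a3r2 were not in that list and are counted among the 211 genes with an Slc symbol. Slc9a3r1, or NHERF1, a scaffold named after the exchanger it binds and itself no carrier, had 9.77, 9.67, 9.83 and 9.85 in MT, against 8.80, 8.81, 8.88 and 8.87 in wild type. It was higher throughout, at 0.94 ± 0.06 (SE), with an adjusted p of 7.68e-07, and all 3 of its probe sets rose. Pdzk1, another PDZ scaffold of apical carriers, which binds Slc22a12 and sodium phosphate cotransporters, moved the other way, with 7.99, 7.67, 7.49 and 7.77 in MT, against 10.14, 9.73, 9.61 and 10.07 in wild type. The bands were far apart, at -2.16 ± 0.13 (SE), with an adjusted p of 3.92e-07. The related scaffold Slc9a3r2 gave no call (-0.19, adjusted p 0.14), although 3 of its 5 other probe sets were called lower.

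Of 9 measured beta and FXYD subunits of the sodium pump, which maintains the sodium gradient that cotransporters use, 4 rose, 1 fell and 4 gave no call. Over all genes 19.7% rose and 21.3% fell. Fxyd4, a regulator of the pump, had 8.26, 8.55, 8.22 and 8.03 in MT, against 6.59, 6.54, 6.83 and 6.80 in wild type. It was higher on every MT array, at 1.58 ± 0.11 (SE), with an adjusted p of 9.71e-07. Fxyd3 and Fxyd5, of the same family, rose by 0.51 and 0.46 and the beta subunit Atp1b1 by 0.24, while Fxyd1, known from heart and muscle, fell by 0.70. Atp1b2, Atp1b3, Fxyd2 and Fxyd6 gave no call, at 0.10, -0.18, -0.15 and -0.01. The water channel Aqp5, found at the apical membrane of secretory glands, had 6.10, 6.07, 5.88 and 5.77 in MT, against 8.44, 7.56, 7.85 and 8.99 in wild type. All MT values were below all wild-type values, at -2.25 ± 0.25 (SE), with an adjusted p of 2.83e-05, or 4.77-fold lower. Stk39, or SPAK, a kinase that activates Slc12a2, fell by 0.48, and Nedd4l, a ubiquitin ligase that removes carriers and channels from the surface, rose by 0.38 (adjusted p 0.00106 and 0.00119).

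**Figure D4:**
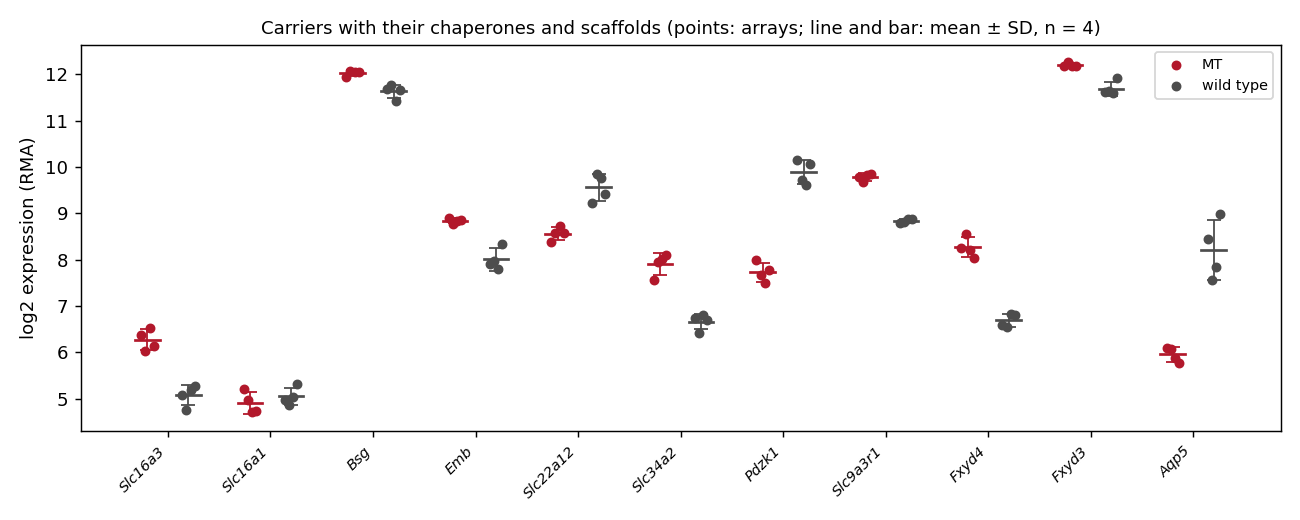
Log2 expression (y axis) of carriers and of their chaperones, scaffolds and other transport partners on each array, MT in red at left and wild type in grey at right of each gene, with the line and bar at the mean ± SD (n = 4). Slc16a3, Bsg and Emb sit higher in MT and Slc16a1 overlaps, while Slc9a3r1 sits higher and Pdzk1 lower.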

How the data were processed

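The starting material was total RNA, the label was biotin, and the signal was read on Affymetrix arrays. The deposited values are log2 expression, made by the authors with RMA (background correction, quantile normalization and summary of probes), per the submitters' processing notes, and the sources used here give no version. All 8 columns were used as deposited, with medians of 6.21 to 6.23, and for arrays their number limits the precision. Probe sets were named through the platform annotation. It gave 20380 of 22690 a single symbol, 691 several and 1555 none, and 64 were controls. Of several probe sets of a gene, the brightest on average was kept, which left 12393 genes. Symbols were checked against a mouse reference gene table, which changed 0 of them.

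Differences were tested with limma (lmFit and eBayes, no covariate, two-sided) over all genes, with Benjamini-Hochberg adjustment and a threshold of 0.05, and the script was tested on simulated data. Named genes were the 12 largest rises and 12 largest falls without overlap, up to 3 rises and 3 falls per substrate class, and 29 fixed genes, of which 25 were measured. This named 77. A gene at or below the highest of 12 bacterial controls on every array of a group has only a bound there, which sets the other group's mean against the mean of each array's highest control. The members, classes, lists and tests were chosen with earlier results of these data known.

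Each group's arrays are numbered 1 to 4 in the titles. Deviations from the group means of same-numbered arrays correlated at 0.10 to 0.18, and 8 of 8 arrays correlated best with their own number, so the numbers were treated as pairs in an alternative fit with a replicate block. This pairing is read from the data, as no label states a shared litter or day. Further alternatives changed the prior, the array weights, the probe set rule, the filter on dim genes, the scaling, the threshold or the arrays in the fit. Promoters came from RefSeq on GRCm38.p6. The fit ran in limma 3.58.1 under R 4.3.3. The promoter search used pandas 2.3.3 and the plots matplotlib 3.10.9, both under Python 3.11.15.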

Additional observations from a re-analysis of the deposited data

Results flagged for a closer look

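In 7 of 154 groups of 4 values, over the named solute carriers, 1 array lay apart from the other 3 by Dixon's test at the 95% level, and chance marks about 1 in 20 groups. Slc12a2 read 12.83 on wild-type array 3, against 12.93 to 12.95 on the other wild-type arrays. Slc27a1 read 6.05 on wild-type array 1, against 6.36 to 6.40. Slc7a4 read 10.56 on wild-type array 3, against 11.02 to 11.04. Slc31a2 read 7.35 on MT array 4, against 7.51 to 7.53 on the other MT arrays. Slc48a1 read 8.66 on MT array 3, against 8.50 to 8.53. Slc5a3 read 4.22 on MT array 3, against 4.43 to 4.46. Slc6a12 read 3.47 on MT array 2, against 3.96 to 4.01, and that value was at or below the highest bacterial control of its array. In 6 of these 7 genes the MT and wild-type values did not overlap, and the exception was Slc12a2. Over all genes 40.0% did not overlap. Calls and non-overlap were grounds for naming many of these genes, so this count was partly set by that choice.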

How the results depend on the processing

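Of the 64 named genes with a call, 49 kept direction and call in every alternative that measured them, apart from a test against a minimum change of 0.5 and a threshold of 0.01. At an adjusted p under 0.01, 24 solute carriers were higher and 41 lower, and Slc6a12 (0.0101), among the 49, did not pass. Against a minimum change of 0.5, 483 genes were higher and 394 lower over the whole array, and 6 and 13 among the solute carriers. Among genes at or over the median level, 80 solute carriers were tested, and 22 were higher and 35 lower. That is 71.25% called, against 60.3% of all genes in that setting. Counted by probe sets instead of genes, 40 of 330 were higher and 96 lower, and no such share was taken over all probe sets. With the replicate block 30 rose and 61 fell, and it kept 85 of 89 calls, with 43.1% called against 42.0% of all genes. Without single arrays 35.1% to 40.8% were called, against 36.1% to 40.1% of all genes. Without wild-type array 4 and MT array 2 it was 34.6%, against 33.7%. Leaving out single arrays gave 27 to 31 rises and 47 to 56 falls, and leaving out wild-type array 4 with MT array 2 gave 25 and 48 and ended the calls of Slc24a3, Slc26a6, Slc29a4, Slc2a10, Slc44a4, Slc4a2 and Slc5a3 (adjusted p 0.0507 to 0.189). Further quantile normalization ended those of Slc26a6 (0.0519) and Slc2a10 (0.0516), and another prior those of Slc26a6 (0.0639) and Slc5a3 (0.0566). The sign turned only in uncalled genes among those named: Slc11a2 was 0.061 as the mean over probe sets and -0.049 to 0.050 without single arrays, Slc26a3 was -0.074 on unique-type probe sets and -0.0042 to 0.18 without single arrays, Slc2a1 was -0.0062 to 0.16 without single arrays, and Slc6a6 was 0.070 on unique-type probe sets and -0.20 to 0.037 without single arrays. The cause was not tested. Signal near the bacterial controls limits what could be seen for the dimmest carriers.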

Other observations

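Probe sets annotated to a solute carrier together with another gene were left out of the counts. The probe set shared by Slc28a2b and Slc28a2 gave a difference of 0.03 (adjusted p 0.853) and that of Slc22a30 and Slc22a29 gave -0.07 (adjusted p 0.559). The probe set shared by Slc9a7, a sodium proton exchanger of the Golgi apparatus, and 6330509M05Rik was lower in MT at -0.45 (adjusted p 0.000903).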
